A study of Mus musculus with 30 samples.

Results

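The Toll-like receptors are a family of pattern-recognition receptors, and the expression of 10 of their genes (Tlr1, Tlr2, Tlr3, Tlr4, Tlr5, Tlr6, Tlr7, Tlr8, Tlr9 and Tlr13) was examined in whole bone marrow (BM) and in macrophages of visceral adipose tissue (ATMs). The members were taken by gene symbol, and all 10 were measured in both tissues, among 13353 genes in the BM table and 17059 in the ATM table. Each tissue was sequenced in 15 libraries, in 5 groups of 3 libraries. All recipients were irradiated with 700 and 400 cGy and received equal parts of CD45.2 marrow from Shp2E76K/+;LysM-Cre+ donors and CD45.1 marrow from Boy/J competitors. The groups were WT recipients, and leptin-deficient obese Ob/Ob recipients given Vehicle, the GLP-1R agonist beinaglutide at 3 mg/kg under the skin (GLP1), an anti-IL-17A antibody at 200 µg per mouse into the peritoneum 3 times per week (IL17), or both agents (Combo). Treatment lasted 30 days and began 8 weeks after transplantation, and none is given for the WT recipients. Mice were 12 to 14 weeks old and of both sexes per the labels, which name 1 batch, give C57BL/6J as the genotype of every library and do not give the sex of single mice.

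Several features of this model bear on what a level means. LysM-Cre acts in myeloid cells, and the competitor cells carry no mutation, so each library could mix mutant donor cells, competitor cells and surviving recipient cells. Ob/Ob recipients lack leptin, and there was no lean group given either agent. In bulk RNA, fewer cells of a type and less RNA per cell cannot be told apart.

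Toll-like receptors are membrane proteins that bind microbial molecules through leucine-rich repeats and signal through a cytoplasmic TIR domain. Some act at the cell surface. Tlr2 pairs with Tlr1 or Tlr6 to bind bacterial lipoproteins, Tlr4 senses lipopolysaccharide together with Ly96 (MD-2) and Cd14, and Tlr5 senses flagellin. Others act in endosomes, which they reach with the chaperone Unc93b1, and they bind nucleic acids: Tlr3 double-stranded RNA, Tlr7 single-stranded RNA, Tlr9 unmethylated CpG DNA and Tlr13, which is found in mice but not in humans, bacterial ribosomal RNA. Tlr8 is the closest relative of Tlr7. Most signal through the adaptor Myd88, Tlr3 signals through Ticam1 (TRIF), and Tlr4 uses both. In marrow and adipose tissue these receptors are best known from macrophages, monocytes, neutrophils, dendritic cells and B cells.

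On the GRCm38 build, Tlr1 (chr5:64924679-64933563, minus strand) and Tlr6 (chr5:64952031-64960097, minus strand) are neighbours, as are Tlr8 (chrX:167242696-167264329, minus strand) and Tlr7 (chrX:167304929-167330558, minus strand). Tlr13 is also X-linked (chrX:106143204-106160493, plus strand). The others are Tlr2 (chr3:83836272-83841767, minus strand), Tlr3 (chr8:45395665-45411080, minus strand), Tlr4 (chr4:66827584-66930284, plus strand), Tlr5 (chr1:182954788-182976044, plus strand) and Tlr9 (chr9:106222598-106226883, plus strand). The counts were values per gene over its exons. Of the 50-base stretches in Tlr1 transcripts, 13.6% also occur in Tlr6, and 12.3% of those of Tlr6 occur in Tlr1. Reads with a mapping quality below 10 were not counted, so the levels of these paralogs are uncertain to that extent. The library was counted without strand, and 7.32% of the exon bases of Tlr3 are shared with Gm45542.

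Promoters are shown for Tlr2, Tlr3, Tlr5 and Tlr13, which were the members whose level differed most between WT and obese Vehicle ATMs. Each is the RefSeq sequence on GRCm38.p6, read 5' to 3' on the strand of the gene from 250 bases before to 30 bases after the annotated start, and capitals mark matches to the kB motif of NF-kB, a factor that Toll-like receptors activate. The windows are chr3:83841579-83841858 (minus strand) for Tlr2, chr8:45410351-45410630 (minus strand) for Tlr3, chr1:182954538-182954817 (plus strand) for Tlr5 and chrX:106143025-106143304 (plus strand) for Tlr13.
Tlr2: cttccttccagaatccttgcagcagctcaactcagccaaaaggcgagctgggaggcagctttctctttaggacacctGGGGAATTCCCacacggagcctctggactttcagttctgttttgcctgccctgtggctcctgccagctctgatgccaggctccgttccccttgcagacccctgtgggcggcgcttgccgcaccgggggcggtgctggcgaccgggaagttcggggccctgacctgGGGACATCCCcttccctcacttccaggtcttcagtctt
Tlr3: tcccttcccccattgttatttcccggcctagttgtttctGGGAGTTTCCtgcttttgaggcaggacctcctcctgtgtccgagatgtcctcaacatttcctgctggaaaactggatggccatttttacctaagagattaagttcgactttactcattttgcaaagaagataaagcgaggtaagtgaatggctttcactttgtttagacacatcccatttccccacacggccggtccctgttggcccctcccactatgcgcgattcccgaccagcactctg
Tlr5: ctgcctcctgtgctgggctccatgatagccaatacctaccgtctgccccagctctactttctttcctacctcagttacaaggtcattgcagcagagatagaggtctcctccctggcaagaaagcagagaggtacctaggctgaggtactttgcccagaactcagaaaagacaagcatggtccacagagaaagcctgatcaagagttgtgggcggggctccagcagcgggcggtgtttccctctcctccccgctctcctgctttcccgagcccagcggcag
Tlr13: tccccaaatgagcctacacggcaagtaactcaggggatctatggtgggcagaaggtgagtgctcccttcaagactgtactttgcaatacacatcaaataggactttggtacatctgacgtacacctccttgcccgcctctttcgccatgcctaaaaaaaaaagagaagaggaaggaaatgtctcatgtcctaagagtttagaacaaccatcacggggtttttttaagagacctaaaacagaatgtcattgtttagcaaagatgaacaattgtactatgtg
The Tlr2 window held 3 kB matches, starting at positions -173, -172 and -8 from the start, of which the first and the second overlap. The Tlr3 window held 1 match, starting at position -211, and the Tlr5 and Tlr13 windows held none. A kB match was present in 7.94% of the 32851 promoter windows of the same length. RefSeq windows were found for 8 of the 10 members. The interferon-response element GAAANNGAAA was present in 3.28% of all windows and, among the 10 windows of the members, only in 1 of those of Tlr6. The GAS element TTCNNNGAA was present in 7.83% of all windows and in 3 of the members' windows, and the PU.1 motif GAGGAAGT in 2.82% and in 2. Both strands were searched, and a match is a description of letters, not of a bound site.

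Total counts per library were between 31086184 and 39925495 in BM and between 24876074 and 45300263 in ATMs. Libraries of a group spread more in ATMs, with a biological coefficient of variation of 32.5% over all genes against 3.51% in BM. Between BM libraries of a group, the chi-square per gene against counting noise was 2.02 to 4.21 in pairs without WT replicate 1. The BM adjusted p values rest on this small spread, and whether it is the spread between mice was not tested. In BM, WT replicate 1 stood apart from the other WT libraries, at 34.8 and 26.6 by the same measure. The ATM libraries did not hold macrophage RNA alone. The summed level of 8 macrophage markers was 77114 to 80254 normalized counts in WT, 55602 to 58937 in Vehicle, 158615 to 163531 in GLP1, 233676 to 239344 in IL17 and 127322 to 130232 in Combo. That of 9 neutrophil markers was 15330 to 15834 in WT, 726456 to 769111 in Vehicle, 8199 to 8451 in GLP1, 15132 to 15359 in IL17 and 427277 to 437150 in Combo. The 5 fibroblast and stroma markers summed to between 171972 and 724716 over the groups. The summed markers of 4 other cell types were also highest in Vehicle ATMs. The 4 endothelial markers summed to 73029 to 76236 there and to 13383 to 20629 in the other groups, the 7 plasmacytoid dendritic cell markers to 51287 to 53262 and 5598 to 10662, the 5 adipocyte markers to 132707 to 140766 and 36351 to 42428, and 3 erythroid markers to 221033 to 224614 and 37678 to 179623. In BM, 9 neutrophil markers summed to between 2740650 and 4673880 in every library. Sex-linked transcripts also moved with the groups. Xist, which is expressed from the inactive X chromosome, was at 6339 to 6712 normalized counts in BM Vehicle and 3528 to 3657 in BM Combo, but at 0 to 113 in the other BM groups. In ATMs it was at 998 to 1533 in Vehicle and 1041 to 1264 in Combo, and at 0 to 40.6 in the others. The Y-linked gene Ddx3y was at 695 to 743 in BM Vehicle, 1489 to 1681 in BM WT and 147 to 177 in BM Combo. Group and the makeup of the cells therefore cannot be told apart for any member. Nor can group and sex in comparisons of groups that differed in these sex-linked levels. The part of sex and of the makeup of the cells in the results below was not tested.

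**Figure D1:**
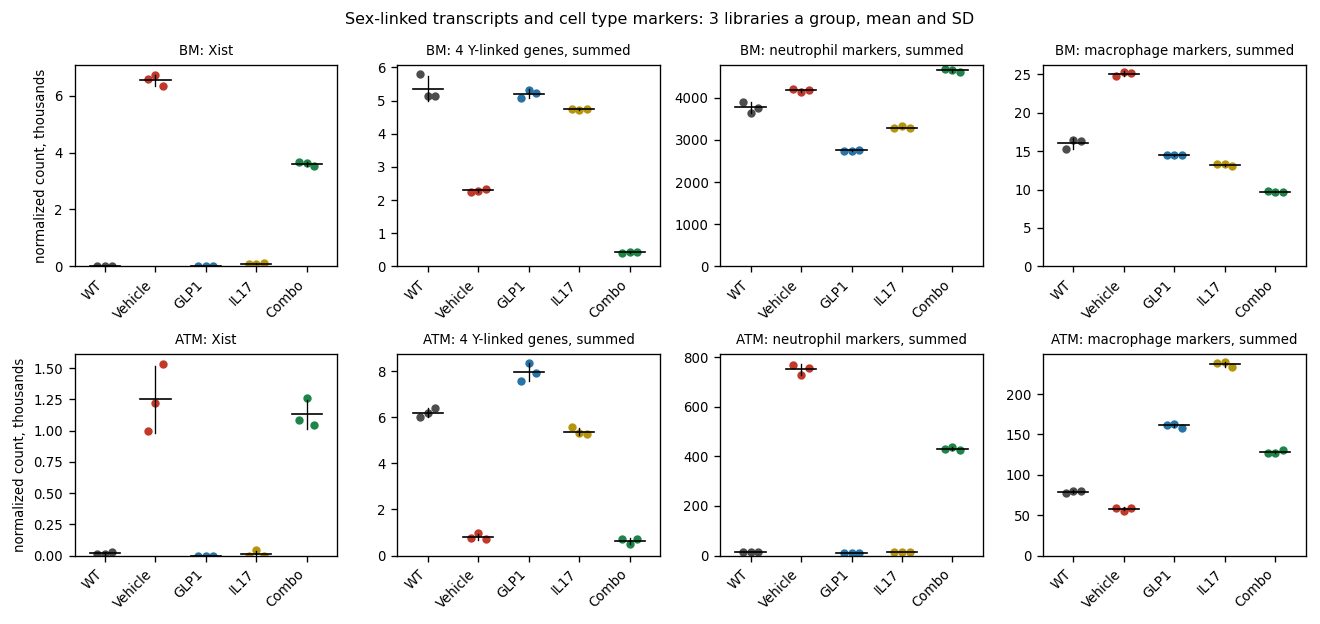
Normalized counts (scaled as the axis label says) of Xist, of 4 summed Y-linked genes, and of summed neutrophil and macrophage markers in BM (upper row) and ATM (lower row) libraries. Each point is a library, and the line and bar are the mean and SD of 3 libraries. Xist was highest in Vehicle and Combo in both tissues, and neutrophil markers in ATMs were between 726456 and 769111 in Vehicle.

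Levels between genes were compared per kilobase of exon and scaled to the effective library size (RPKM), as means over the libraries of a group. In WT BM, Tlr13 (24.6 ± 1.62, SD, n = 3) and Tlr2 (23.0 ± 0.799) were the most abundant, and their ranges overlapped. Tlr4 (6.83 ± 1.18), Tlr8, Tlr9, Tlr7 and Tlr6 (4.59 ± 0.470) followed in that order, with overlapping ranges between Tlr4 and Tlr8, between Tlr9 and Tlr7 and between Tlr7 and Tlr6. Tlr1 (3.94 ± 0.113), Tlr5 (1.63 ± 0.237) and Tlr3 (0.159 ± 0.0649) came last, each apart from the next. The order was different in WT ATMs. Tlr2 (27.7 ± 1.67) was well above the rest there, and Tlr4 (6.52 ± 0.416) was second. Tlr7, Tlr1, Tlr13, Tlr3, Tlr8 and Tlr6 lay between 3.98 ± 0.888 and 2.13 ± 0.654, and each of them overlapped its neighbour. Tlr5 (1.38 ± 0.215) and Tlr9 (0.278 ± 0.155) were lowest. In Vehicle ATMs, Tlr2 stood at 86.9 ± 3.05, Tlr13 was second at 35.2 ± 4.65 and Tlr3 came next at 13.6 ± 1.29, with a range overlapping that of Tlr4. Tlr7 (16.3 ± 1.48) and Tlr9 (9.28 ± 0.776) came next after Tlr2 and Tlr13 in Vehicle BM. The order depended on the length used in both tissues. With coding length in place of exon length, Tlr3 moved from place 6 to 3 in WT ATMs, and Tlr4 stood above Tlr3 in Vehicle ATMs. In Vehicle BM, Tlr13 (44.6) then stood above Tlr2 (41.4), and Tlr4 (11.3) above Tlr9 (10.4).

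The comparison of Vehicle with WT asked how the receptors differed between obese and lean recipients. No treatment is given for WT, so these groups may differ in dosing as well. In BM, the endosomal receptors Tlr3 and Tlr7 rose in obese recipients, and the flagellin receptor Tlr5 fell. A gene was called where edgeR's quasi-likelihood test gave a Benjamini-Hochberg adjusted p below 0.05 with a log2 fold change beyond 1. By that rule 3 of 10 members were called, 2 higher and 1 lower, against 19.5% of all genes (9.44% higher and 10% lower). At the adjusted p alone all 10 members passed, 7 higher and 3 lower, against 76.6% of all genes, and the 3 libraries of each group did not overlap for any of the 10, against 75.8% of all genes. The median log2 fold change of the members was 0.46, and that of all genes was -0.016. The values below are normalized counts, the counts scaled to the mean effective library size of the tissue, and are given for replicates 1, 2 and 3.

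Tlr3 stood at 32.0, 15.9 and 38.8 in WT BM and at 159.9, 149 and 139 in Vehicle BM. It was the least abundant member in WT, with 16 to 37 counts a library, and every Vehicle library was above every WT library. The log2 fold change was 2.37 ± 0.27 (SE, adjusted p = 4.46e-10). Tlr7 stood at 886, 681 and 693 in WT and 2553, 2231 and 2158 in Vehicle. The groups were again apart, with a log2 fold change of 1.61 ± 0.095 (SE, adjusted p = 2.19e-10). Tlr9 rose by less, from 663, 669 and 635 to 1059, 1232 and 1081, at 0.78 ± 0.069 (SE, adjusted p = 3.23e-13) on the log2 scale. Tlr8, next to Tlr7 on the X chromosome, went the other way, from 852, 737 and 693 in WT to 458, 425 and 451 in Vehicle. Its libraries did not overlap, and its log2 fold change was -0.78 ± 0.077 (SE, adjusted p = 7.58e-12). Tlr13 was at 3505 to 3967 in WT and 4549 to 4714 in Vehicle, a log2 fold change of 0.32.

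Among the cell-surface receptors in BM, Tlr5 showed the largest difference. It was at 227, 295 and 296 in WT and at 56.7, 40.8 and 45.6 in Vehicle. All Vehicle libraries were below all WT libraries, with a log2 fold change of -2.51 ± 0.15 (SE, adjusted p = 1.56e-18). Tlr1 was at 474, 452 and 451 in WT and 713, 694 and 741 in Vehicle, and its log2 fold change was 0.64 ± 0.072 (SE, adjusted p = 2.05e-10). Tlr2 was also higher, at 2360.0, 2383 and 2515 in WT and 3382, 3403 and 3377 in Vehicle, and its log2 fold change was 0.49 ± 0.040 (SE, adjusted p = 3.48e-14). Tlr6, the other partner of Tlr2, was at 556 to 666 in WT and 792 to 811 in Vehicle, at 0.43 ± 0.067 (SE, adjusted p = 4.11e-07). Tlr1, Tlr2 and Tlr6 thus rose together by less than the limit for a call. Tlr4 was at 1586, 1177 and 1204 in WT and 1034, 985 and 951 in Vehicle, at -0.42 ± 0.092 (SE, adjusted p = 0.000595). Its difference rested in part on WT replicate 1, without which the log2 fold change was -0.27. Without that library the same 3 members were called and all 10 kept their direction.

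The 3 Vehicle libraries serve as the reference for every treatment and also enter Vehicle against WT, so these comparisons are not independent. In BM, Tlr3, Tlr7 and Tlr9 fell with each of the 3 treatments. GLP1 against Vehicle had 5 of 10 members called, all lower (Tlr1, Tlr2, Tlr3, Tlr7 and Tlr9), against 16.7% of all genes, with 7.6% higher and 9.08% lower. IL17 had 5 called, Tlr5 higher and Tlr1, Tlr3, Tlr7 and Tlr9 lower, against 16.1% (7.65% higher and 8.46% lower). Combo had 4 called, Tlr5 higher and Tlr3, Tlr7 and Tlr9 lower, against 17.7% (6.58% higher and 11.1% lower). The medians over the members were -0.81, -0.43 and -0.16, and those over all genes 0.010, 0.0065 and 0.021.

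Tlr3 in BM was at 18.7, 41.2 and 16.4 in GLP1, 35.5, 29.7 and 32.6 in IL17 and 19.5, 12.7 and 30.3 in Combo, all below every Vehicle library. The log2 fold changes against Vehicle were -2.53 ± 0.27 (SE, adjusted p = 1.45e-10), -2.20 ± 0.26 (SE, adjusted p = 1.71e-09) and -2.83 ± 0.29 (SE, adjusted p = 2.94e-11). Tlr7 was at 876, 905 and 966 in GLP1, 659.8, 814 and 776 in IL17 and 774, 765 and 727 in Combo. These levels lay within or near the WT range of 681 to 886 and far below Vehicle, with log2 fold changes of -1.34 ± 0.093 (SE, adjusted p = 2.09e-09), -1.62 ± 0.095 (SE, adjusted p = 2.23e-10) and -1.62 ± 0.10 (SE, adjusted p = 2.55e-10). Tlr9 was at 313, 269 and 267 in GLP1, 522, 480.1 and 505 in IL17 and 265, 277 and 294 in Combo. Every treated library was below every WT library as well as every Vehicle library. Its log2 fold changes against Vehicle were -1.99 ± 0.076 (SE, adjusted p = 5.56e-25), -1.16 ± 0.070 (SE, adjusted p = 3.56e-18) and -2.01 ± 0.077 (SE, adjusted p = 6.33e-25). Cell type markers known to accompany Tlr9 and Tlr7 also differed between the groups, in part in the other direction. The 10 B cell markers in BM summed to 45700 to 46645 in WT, 12628 to 13264 in Vehicle, 4147 to 4172 in GLP1, 14254 to 14596 in IL17 and 4417 to 4540 in Combo. The 7 plasmacytoid dendritic cell markers summed to 12293 to 12698, 27302 to 28301, 2588 to 2784, 6076 to 6179 and 2647 to 2861 in the same order of groups. That sum did not describe each marker, as 1 of the 7 was called higher and 2 lower in Vehicle against WT. Against Vehicle, 5 of these 7 were called lower with GLP1, 1 with IL17 and 5 with Combo. Of the 10 B cell markers, 9 were called lower in Vehicle against WT, where Tlr9 and Tlr7 were higher. Against Vehicle, 8 of the 10 were called lower and 1 higher with GLP1. With IL17 0 were called lower and 2 higher, and with Combo 6 were called lower. The part of B cells and plasmacytoid dendritic cells in the Tlr9 and Tlr7 levels was not tested.

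Tlr5 in BM was at 91.9, 85.9 and 93.0 in GLP1, 266, 263 and 260.3 in IL17 and 275, 270.0 and 236 in Combo. All 9 treated libraries were above the Vehicle libraries, and those of IL17 and Combo reached the WT range of 227 to 296, while those of GLP1 did not. The log2 fold changes against Vehicle were 0.92 ± 0.17 (SE, adjusted p = 1.16e-05) for GLP1, 2.46 ± 0.15 (SE, adjusted p = 3.37e-18) for IL17 and 2.45 ± 0.15 (SE, adjusted p = 4.89e-18) for Combo. Tlr1 was at 239, 259 and 248 in GLP1, 299, 305 and 331 in IL17 and 550.4, 540.1 and 517 in Combo. It was below every WT library with the single agents, and between WT and Vehicle with Combo. The log2 fold changes were -1.52 ± 0.077 (SE, adjusted p = 9.61e-21), -1.20 ± 0.075 (SE, adjusted p = 9.59e-18) and -0.42 ± 0.071 (SE, adjusted p = 1.8e-06). Tlr2 was at 1292, 1440.0 and 1363 in GLP1, 2335, 2363 and 2304 in IL17 and 2708, 2984 and 2887 in Combo, at -1.31 ± 0.042 (SE, adjusted p = 1.08e-27), -0.54 ± 0.040 (SE, adjusted p = 2.04e-15) and -0.24 ± 0.039 (SE, adjusted p = 6.83e-07). GLP1 had the lowest Tlr1 and Tlr2 of any BM group.

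For Tlr4 and Tlr8 in BM, no difference between GLP1 and Vehicle was detected (-0.032 ± 0.094 SE, adjusted p = 0.77 for Tlr4 and 0.017 ± 0.081 SE, adjusted p = 0.854, for Tlr8), and the 95% intervals of the log2 fold change were -0.22 to 0.15 and -0.14 to 0.18. With Combo, Tlr4 was at 1620.4, 1575 and 1456 and rose by 0.65 ± 0.091 (SE, adjusted p = 8.63e-06), and Tlr8 was at 689, 759 and 706 and rose by 0.69 ± 0.078 (SE, adjusted p = 2.49e-10). Tlr8 also rose with IL17 (0.67 ± 0.077 SE, adjusted p = 4.47e-10), as did Tlr4 (0.29 ± 0.092 SE, adjusted p = 0.0114). Tlr6 was at 693 to 728 in GLP1, 605 to 678 in IL17 and 827 to 894 in Combo, with log2 fold changes of -0.16, -0.33 and 0.10. Tlr13 stood at 3739 to 3753 in GLP1, 4568 to 4681 in IL17 and 4312 to 4492 in Combo, with log2 fold changes of -0.30, -0.0026 and -0.071. Its IL17 libraries overlapped those of Vehicle.

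**Figure D2:**
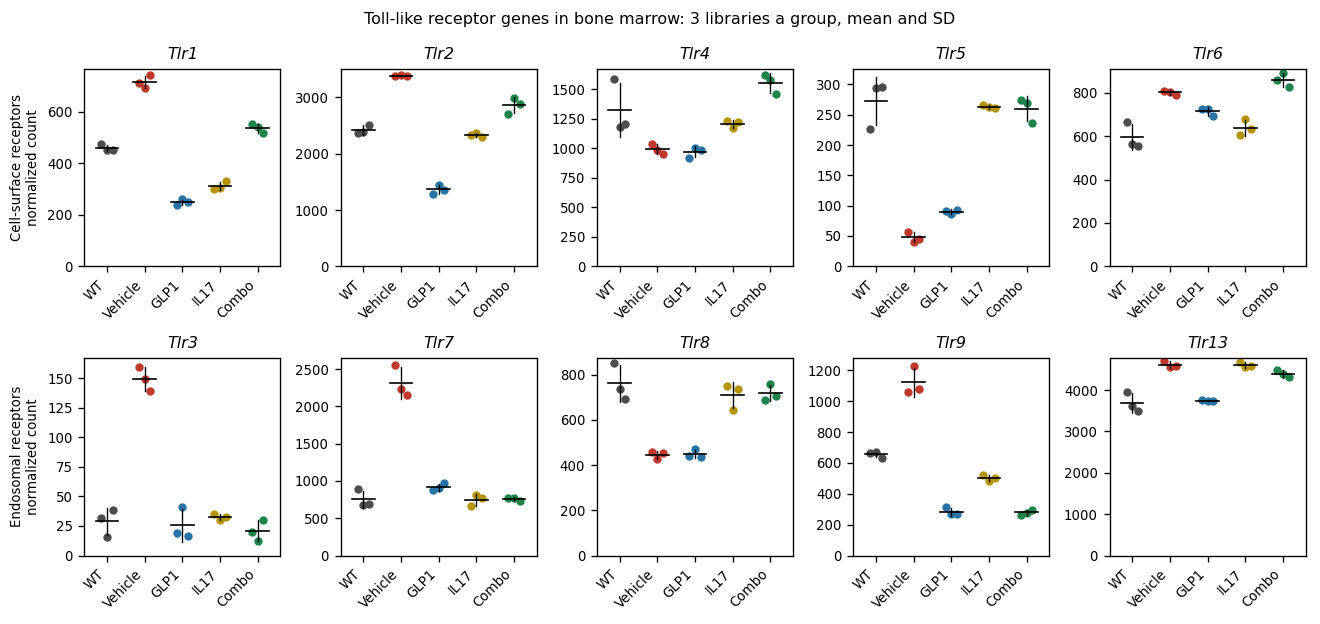
Normalized counts of the 10 Toll-like receptor genes in BM, 1 panel a gene, with 3 libraries in each of the 5 groups (points) and their mean and SD. Tlr3 and Tlr7 were highest in Vehicle, Tlr5 was lowest in Vehicle at 40.8 to 56.7, and Tlr9 was lower in each treated group than in WT.

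Combo was also compared with WT, to see how far the treated obese marrow differed from lean marrow. In BM 1 of 10 members was called, against 14.3% of all genes (4.4% higher and 9.93% lower). That gene was Tlr9, at 635 to 669 in WT and 265 to 294 in Combo, with a log2 fold change of -1.23 ± 0.080 (SE, adjusted p = 2.89e-17). Tlr7 differed by -0.0036 ± 0.10 (SE, adjusted p = 0.978), with a 95% interval from -0.21 to 0.20. Tlr5 differed by -0.061 ± 0.11 (SE, adjusted p = 0.634), with an interval from -0.28 to 0.16, and Tlr3 by -0.46 ± 0.35 (SE, adjusted p = 0.23), with a wide one from -1.15 to 0.22. Tlr6 (0.53), Tlr13 (0.25), Tlr2 (0.24), Tlr4 (0.22) and Tlr1 (0.22) were above WT at the adjusted p, all under the limit for a call.

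Direct comparisons of Combo with the single agents were added after the values had been seen. In BM, Combo exceeded GLP1 for Tlr5 (1.53 ± 0.13 SE, adjusted p = 1.08e-13), Tlr1 (1.11 ± 0.079 SE, adjusted p = 6.93e-16) and Tlr2 (1.07 ± 0.042 SE, adjusted p = 2.27e-24), the 3 members called, against 13.2% of all genes. Tlr9 and Tlr3 differed by -0.021 ± 0.088 (SE, adjusted p = 0.842) and -0.31 ± 0.35 (SE, adjusted p = 0.438). Against IL17, 0 of 10 members were called by edgeR and 0 by DESeq2, and 5.67% of all genes were called by edgeR. Of the members 6 had an unadjusted p below 0.05 and 5 passed the adjusted p alone, as did 52.5% of all genes. The largest of these differences were Tlr9, lower in Combo at -0.85 ± 0.082 (SE, adjusted p = 1.42e-11), and Tlr1, higher at 0.78 ± 0.076 (SE, adjusted p = 1.89e-11).

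In ATMs, the level of Tlr13 rose most between WT and obese Vehicle recipients, and Tlr2 and Tlr3 rose with it, while Tlr5 fell and had no counts in 2 of the 3 Vehicle libraries. In all 4 of 10 members were called, 3 higher and 1 lower, against 35.4% of all genes (12.5% higher and 22.9% lower). At the adjusted p alone 7 members passed, against 56.9%, and for 7 the libraries did not overlap, against 62.9%. The median log2 fold change was 0.83 over the members and -0.21 over all genes.

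Tlr13 was at 429, 621 and 486 in WT ATMs and at 5701, 4374 and 5011 in Vehicle ATMs. The groups were far apart, with a log2 fold change of 3.29 ± 0.13 (SE, adjusted p = 5.77e-12). Tlr2 was at 2838, 2901 and 2586 in WT and 8640.2, 8422 and 9024 in Vehicle, at 1.65 ± 0.069 (SE, adjusted p = 9.07e-12). Its libraries were close to each other within both groups. Tlr3 was at 523, 410.3 and 792 in WT and 2295, 2598 and 2163 in Vehicle, at 2.03 ± 0.31 (SE, adjusted p = 4.17e-05). Neutrophil markers rose in the same libraries, 8 of the 9 measured being called higher in Vehicle, while of the 8 macrophage markers 3 were called lower and 2 higher. The lower ones were Adgre1 (F4/80), whose mean went from 6913 to 1404 normalized counts, Csf1r, the receptor for macrophage colony-stimulating factor (18149.8 to 1579), and the complement gene C1qa (9355 to 3847). The higher ones were the Fc receptor gene Fcgr1 (414 to 5437) and Cd68 (8681 to 17462). Of the 4 endothelial markers 3 were called higher in Vehicle, of the 7 plasmacytoid dendritic cell markers 3 higher and 1 lower, and of the 5 adipocyte markers 2 higher and 2 lower. The part of RNA from these other cells in the Tlr13, Tlr2 and Tlr3 levels was not tested.

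Tlr5 had 222, 252 and 184 normalized counts in WT ATMs and 26.7, 0 and 0 in Vehicle ATMs. A single Vehicle library held 20 counts and the others held none. The fitted log2 fold change was -4.57 ± 1.04 (SE, adjusted p = 0.00151), and it depended on that library. The group means were 219 in WT and 8.91 in Vehicle. Tlr4 was at 1173, 1289.7 and 1145 in WT and 2585, 2188 and 1895 in Vehicle, at 0.89 ± 0.14 (SE, adjusted p = 8.14e-05). Tlr6 (0.94 ± 0.34 SE, adjusted p = 0.0264) and Tlr7 (0.78 ± 0.16 SE, adjusted p = 0.000739) also rose, under the limit for a call. Tlr7 was at 522, 668 and 429 in WT and 1003, 910.0 and 865 in Vehicle, without overlap. Tlr1 differed by -0.45 ± 0.37 (SE, adjusted p = 0.313). Its Vehicle libraries were at 318, 473 and 95.8, a wide spread around the WT range of 387 to 435. Tlr8 (0.20 ± 0.25 SE, adjusted p = 0.515) and Tlr9 (0.27 ± 0.79 SE, adjusted p = 0.797) overlapped between the groups. Tlr9 was near the detection limit in all ATM groups, at 12.0 to 46.3 in WT and 6.64 to 19.0 in Combo, and no comparison of it passed the adjusted p.

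**Figure D3:**
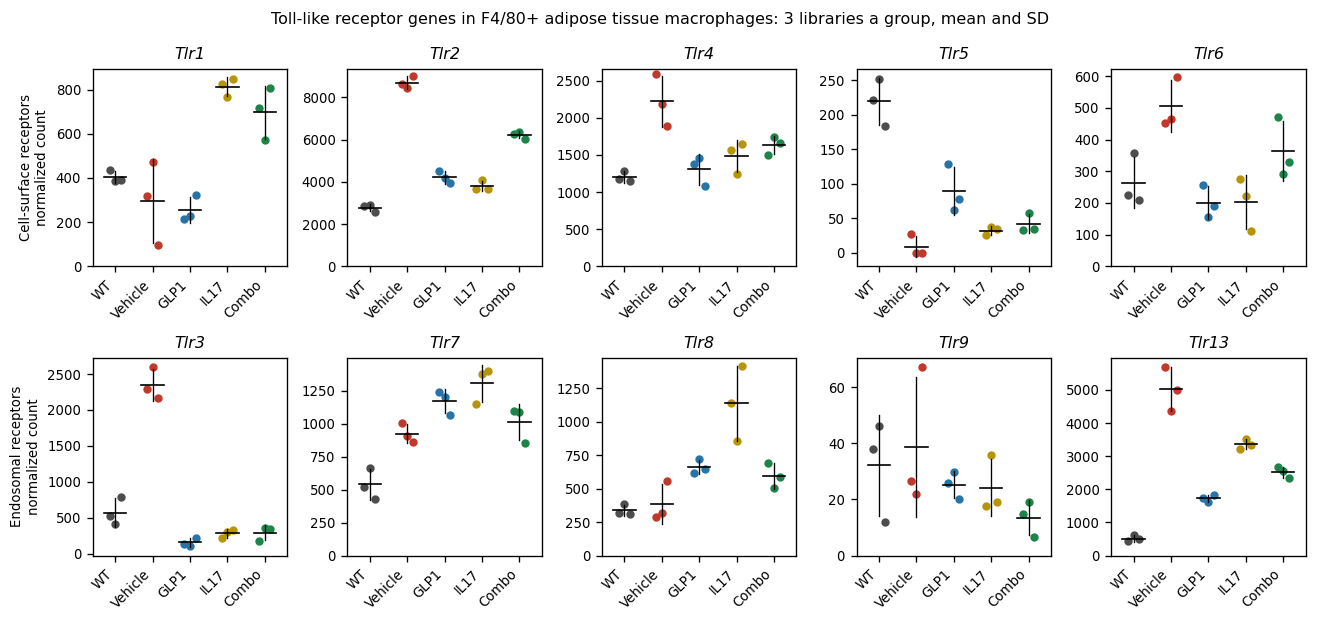
Normalized counts of the 10 Toll-like receptor genes in ATMs, 1 panel a gene, with 3 libraries in each of the 5 groups (points) and their mean and SD. The means of Tlr2, Tlr3, Tlr4 and Tlr13 were highest in Vehicle, those of Tlr8 and Tlr1 were highest in IL17, and Tlr5 was at 0 in 2 of the 3 Vehicle libraries.

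With treatment, Tlr3 fell the most in ATMs, and Tlr2 and Tlr13 fell in every treated group. GLP1 against Vehicle had 5 of 10 members called, Tlr5 higher and Tlr2, Tlr3, Tlr6 and Tlr13 lower, against 31.8% of all genes (20.8% higher and 10.9% lower). IL17 had 5 called, Tlr1 and Tlr8 higher and Tlr2, Tlr3 and Tlr6 lower, against 35.5% (22.4% higher and 13.1% lower). Combo had 2 called, Tlr1 higher and Tlr3 lower, against 26.4% (14.1% higher and 12.2% lower). The medians over the members were -0.69, -0.58 and -0.46, and those over all genes 0.19, 0.17 and 0.

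Tlr3 in ATMs was at 141, 115 and 228 in GLP1, 221, 300.0 and 333 in IL17 and 174, 359 and 349 in Combo. Every treated library was below the WT range of 410.3 to 792 as well as below Vehicle. The log2 fold changes against Vehicle were -3.85 ± 0.34 (SE, adjusted p = 1.03e-07), -3.05 ± 0.32 (SE, adjusted p = 8.18e-07) and -3.00 ± 0.32 (SE, adjusted p = 1.2e-06). Tlr13 was at 1747, 1623 and 1829 in GLP1, 3222, 3524 and 3329 in IL17 and 2666, 2554 and 2341 in Combo. All lay between WT and Vehicle, with log2 fold changes of -1.54 ± 0.12 (SE, adjusted p = 3.09e-08), -0.58 ± 0.12 (SE, adjusted p = 0.000606) and -0.997 ± 0.12 (SE, adjusted p = 4.2e-06), the last just under the limit for a call. Tlr2 was at 4504, 4199.7 and 3918 in GLP1, 3641, 4085 and 3672 in IL17 and 6255, 6369 and 6040.1 in Combo. The levels again lay between WT and Vehicle, and those of Combo were nearest to Vehicle. The log2 fold changes were -1.05 ± 0.067 (SE, adjusted p = 2.48e-09), -1.19 ± 0.067 (SE, adjusted p = 4.3e-10) and -0.48 ± 0.067 (SE, adjusted p = 1.92e-05), and the call for GLP1 was lost without GLP1 replicate 3, at -0.998. Tlr6 was at 257, 154 and 191 in GLP1 and 275, 223 and 111 in IL17, all below its Vehicle range of 452 to 599, at -1.33 ± 0.34 (SE, adjusted p = 0.0038) and -1.31 ± 0.34 (SE, adjusted p = 0.00368). Tlr4 fell by 0.77, 0.58 and 0.45 on the log2 scale in GLP1, IL17 and Combo (adjusted p = 0.000317, 0.00273 and 0.0175).

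Tlr1 and Tlr8 were instead higher with IL17 in ATMs. Tlr8 was at 285, 320.0 and 558 in Vehicle, 618, 722 and 644 in GLP1, 1140.3, 856 and 1417 in IL17 and 694, 505 and 586 in Combo. The IL17 libraries were above those of all other ATM groups, with a log2 fold change against Vehicle of 1.55 ± 0.25 (SE, adjusted p = 6.28e-05). The changes with GLP1 (0.77 ± 0.24 SE, adjusted p = 0.0147) and Combo (0.62 ± 0.24 SE, adjusted p = 0.0471) were smaller. Tlr1 was at 214, 228 and 323 in GLP1, 824, 767 and 849.7 in IL17 and 714, 569.8 and 807 in Combo. IL17 and Combo libraries were above all Vehicle libraries, at 1.46 ± 0.37 (SE, adjusted p = 0.00351) and 1.24 ± 0.37 (SE, adjusted p = 0.0121). Vehicle replicate 3, at 95.8, weighed on both, and without it the Combo value was 0.82 and was no longer called, nor was it with only the 6 libraries compared (edgeR adjusted p = 0.0578). Tlr5 was at 128, 62.3 and 77.7 in GLP1, 25.2, 36.7 and 34.3 in IL17 and 33.7, 57.8 and 34.1 in Combo, with fitted log2 fold changes of 3.28 ± 0.99 (SE, adjusted p = 0.0114), 1.80 ± 0.96 (SE, adjusted p = 0.122) and 2.19 ± 0.97 (SE, adjusted p = 0.0761). The GLP1 call was lost in an edgeR fit of only the 6 libraries compared (adjusted p = 0.0946). The group means were 89.5, 32.1 and 41.9, against 8.91 in Vehicle, and the IL17 libraries overlapped those of Vehicle. Tlr7 rose with IL17 (0.50 ± 0.16 SE, adjusted p = 0.0143) and was at 0.34 with GLP1 (adjusted p = 0.0882) and 0.13 with Combo (adjusted p = 0.54). The summed macrophage markers were highest in IL17 and the neutrophil markers lowest in GLP1, and their part in these values was not tested.

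Against WT, Combo ATMs had 3 of 10 members called, Tlr2 and Tlr13 higher and Tlr5 lower, against 21.6% of all genes (7.08% higher and 14.5% lower). Tlr13 was 2.30 ± 0.13 (SE, adjusted p = 7.71e-10) and Tlr2 1.16 ± 0.068 (SE, adjusted p = 1.35e-09) above WT. Tlr5 differed by -2.39 ± 0.91 (SE, adjusted p = 0.0486), and that call was lost without any single one of the 6 libraries. Tlr7 (0.91 ± 0.16 SE, adjusted p = 0.000294), Tlr8 (0.82 ± 0.24 SE, adjusted p = 0.0139) and Tlr4 (0.44 ± 0.14 SE, adjusted p = 0.0222) were above WT and Tlr3 (-0.97 ± 0.31 SE, adjusted p = 0.0189) was below it, all under the limit for a call. Against GLP1, Combo had 1 member called, Tlr1 at 1.45 ± 0.37 (SE, adjusted p = 0.00563), against 18.7% of all genes. Against IL17, 0 of 10 were called by edgeR and 0 by DESeq2, and 14.2% of all genes were called by edgeR. Of the members 5 had an unadjusted p below 0.05 and 3 passed the adjusted p alone, as did 28.6% of all genes. These were Tlr2, higher in Combo (0.71) and Tlr8 (-0.94) and Tlr13 (-0.41) lower. Both comparisons with a single agent were added after the values had been seen.

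**Figure D4:**
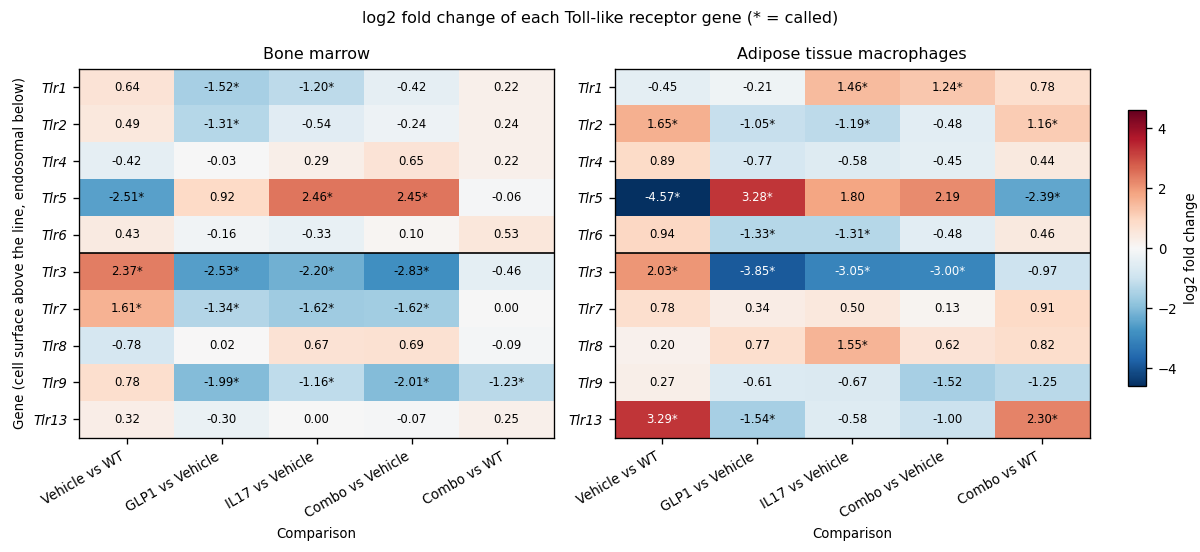
Log2 fold change of each member (rows, cell-surface receptors above the line and endosomal receptors below) in the 5 planned comparisons (columns) in BM (left) and ATMs (right). An asterisk marks a call. Tlr3 rose in Vehicle against WT and fell with each treatment in both tissues, at -3.85 with GLP1 in ATMs.

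Whether a member changed by a different amount in the 2 tissues was tested in a fit of all 30 libraries. The edgeR fit used 1 spread per gene for both tissues, so its SE can be too small for members that vary more in ATMs. For Tlr5 in Vehicle against WT that SE was 0.75, below the 1.04 of ATMs alone. The limma alternative allowed each tissue its own variance level. For Vehicle against WT, 7 of 10 members differed between the tissues at the adjusted p, against 56.0% of the 13076 genes measured in both. Tlr13 differed most, its log2 fold change in ATMs exceeding that in BM by 2.97 ± 0.13 (SE, adjusted p = 1.25e-16 by edgeR and 1.15e-17 by limma). Tlr4 fell in BM and rose in ATMs, a difference of 1.31 ± 0.18 (SE, adjusted p = 5.38e-07 by edgeR and 2.19e-06 by limma). For Combo against Vehicle 5 members differed, against 55.1% of genes. Tlr7 fell by 1.62 on the log2 scale in BM and stood at 0.13 in ATMs, a difference of 1.79 ± 0.19 (SE, adjusted p = 1.09e-08 by edgeR and 3e-08 by limma). Tlr4 rose in BM and fell in ATMs, with a difference of -1.05 ± 0.18 (SE, adjusted p = 1.32e-05 by edgeR and 1.42e-05 by limma). For Tlr3 the tissues differed by -0.33 ± 0.46 (SE, adjusted p = 0.561 by edgeR and 0.425 by limma) in Vehicle against WT. In Combo against Vehicle they differed by -0.13 ± 0.52 (SE, adjusted p = 0.853 by edgeR and 0.788 by limma). The whole set of differences past the threshold is given in the closing section. Levels in the 2 tissues were normalized in 1 fit for this purpose, and the tissues also differ in how their cells were isolated.

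**Figure D5:**
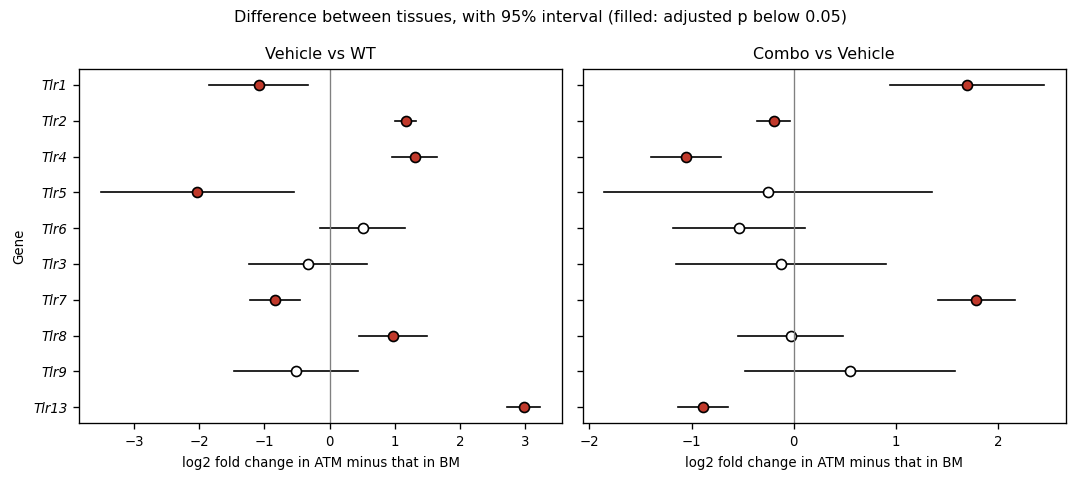
Log2 fold change in ATMs minus that in BM for each member, with its 95% interval, for Vehicle against WT (left) and Combo against Vehicle (right). Filled points have an adjusted p below 0.05. Tlr13 (2.97) and Tlr4 (1.31) lay above 0 for Vehicle against WT, and Tlr7 (1.79) and Tlr1 (1.69) for Combo against Vehicle.

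Beside the receptors, 50 genes of the pathway were listed by role, from coreceptors to restraints of signaling, of which 49 were measured in BM and 50 in ATMs. In BM, 10 of 49 (20.4%) were called in Vehicle against WT, near the 19.5% of all genes. Of these 8 were higher and 2 lower (16.3% and 4.08% of the 49, against 9.44% and 10% of all genes). Irf7, the transcription factor through which the endosomal receptors induce type I interferon, changed most, from 2203 ± 126 (SD, n = 3) in WT to 49549.7 ± 1311 in Vehicle, at 4.49 ± 0.042 (SE, adjusted p = 3.2e-29). Cd14, which hands lipopolysaccharide to Tlr4, rose by 3.93 ± 0.057 (SE, adjusted p = 8.87e-40). Cd36, a scavenger receptor that assists Tlr2 with Tlr6, fell, at -2.20 ± 0.078 (SE, adjusted p = 4.18e-22). The adaptor Ticam2, which bridges Tlr4 to Ticam1, was also called lower, at -1.35 ± 0.087 (SE, adjusted p = 1.1e-16). Myd88 (0.76) and the chaperone Unc93b1 (0.64) rose by less than the limit for a call. Of the 8 chaperone, transport and processing genes, 3 were called higher, against 9.44% of all genes.

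With treatment 14 of 49 pathway genes in BM (28.6%, against 16.7% of all genes) were called with GLP1, 10 (20.4%, against 16.1%) with IL17 and 12 (24.5%, against 17.7%) with Combo. Of these 13, 8 and 11 were lower (26.5%, 16.3% and 22.4% of the 49) and 1, 2 and 1 higher. Over all genes 9.08%, 8.46% and 11.1% were lower and 7.6%, 7.65% and 6.58% higher. Irf7 fell to 629.9 ± 56.3, 1173 ± 23.5 and 944 ± 36.6 normalized counts in those groups, with log2 fold changes of -6.30, -5.40 and -5.71. Cd14 followed, at -3.48, -3.09 and -2.42. Cd36 rose with GLP1 (2.84). Lgmn, an endosomal protease that processes Tlr9, fell with Combo (-2.39). Unc93b1 fell with GLP1 at -1.20 ± 0.026 (SE, adjusted p = 7.12e-34). Ticam2 rose with IL17 at 1.21. Against WT, Combo BM had 7 of 49 pathway genes called (14.3%), the same share as over all genes (14.3%), among them Cd14 higher (1.51) and Irf7 (-1.22) and Cd180 (-1.19), a Toll-like receptor homolog of B cells, lower.

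In ATMs, 20 of 50 pathway genes (40%) were called in Vehicle against WT, near the 35.4% of all genes. They were 17 higher and 3 lower, where over all genes 12.5% were higher and 22.9% lower. Irf7 again changed most, from 3776 ± 111 in WT to 172943 ± 2933 in Vehicle, at 5.52 ± 0.075 (SE, adjusted p = 1.98e-17). Slc15a3, a lysosomal transporter, rose by 4.14 ± 0.23 (SE, adjusted p = 3.15e-10). Sarm1, a TIR-domain protein known to restrain Ticam1, was at -4.48 ± 1.08 (SE, adjusted p = 0.00237). The adaptors Tirap (1.75) and Ticam1 (1.23) were called higher and Ticam2 lower (-1.29), while Myd88 rose by 0.83. Irak3, an inhibitor of the receptor-proximal kinases, rose by 2.17. With treatment 14 of 50 (28%, against 31.8% of all genes) were called in GLP1, 20 (40%, against 35.5%) in IL17 and 15 (30%, against 26.4%) in Combo. Of these 9, 12 and 11 were lower (18%, 24% and 22% of the 50) and 5, 8 and 4 higher. Over all genes 10.9%, 13.1% and 12.2% were lower and 20.8%, 22.4% and 14.1% higher. Irf7 fell in all 3, at -6.54, -6.37 and -5.94, and Tnip1, a restraint of NF-kB signaling, fell with IL17 (-2.80) and Combo (-2.57). Unc93b1 rose with IL17 at 1.44 ± 0.048 (SE, adjusted p = 6.14e-13). In Combo against WT, 7 of 50 pathway genes were called (14%, below the 21.6% of all genes). All 7 were higher, where over all genes 7.08% were higher and 14.5% lower. They were led by Slc15a3 (1.83) and Ctss (1.65), an endosomal protease.

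For each member the gene with the most similar pattern was taken as the one with the highest Pearson r of log2 normalized level over the 15 libraries of a tissue, which are grouped, so that r describes the group pattern. In BM these were Eif4a1 for Tlr1 (r = 0.983), Nono for Tlr2 (0.986), Itm2c for Tlr3 (0.939), Ugp2 for Tlr4 (0.964), Scnn1a for Tlr5 (0.989), P3h1 for Tlr6 (0.944), Ctsl for Tlr7 (0.986), Mogat2 for Tlr8 (0.975), Gzma for Tlr9 (0.995) and Platr7 for Tlr13 (0.926). Gzma encodes a granzyme of cytotoxic lymphocytes. It is itself 1 of the 5 NK cell markers, so their sum is not separate from it. In BM that sum was 2079 to 2165 in WT, 4766 to 4956 in Vehicle, 732 to 907 in GLP1, 1338 to 1378 in IL17 and 467 to 511 in Combo. Of the 5 markers 2 were called higher and 1 lower in Vehicle against WT. In ATMs the most similar genes were Tifab for Tlr1 (0.907), Wfdc2 for Tlr2 (0.990), Irf9 for Tlr3 (0.963), Stk19 for Tlr4 (0.919), Klf12 for Tlr5 (0.982), B230208H11Rik for Tlr6 (0.929), Sh2d1b1 for Tlr7 (0.947), Uap1l1 for Tlr8 (0.934), Yars2 for Tlr9 (0.834) and Spi1 for Tlr13 (0.992). No member had the same nearest gene in both tissues.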

How the data were processed

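RNA-seq was performed on 30 libraries, 15 from whole BM and 15 from F4/80+ ATMs sorted from visceral fat. Per the labels and methods, the authors aligned reads with STAR 2.7.2a to mm10 (GRCm38) and counted them without strand over GENCODE exons with featureCounts 2.0.1. The deposited values are raw counts per gene, and each of the 2 tables was normalized separately here. Library totals are given in the report, intervals cover counting and replicate error as modelled, and 0 columns were unmapped. No gene was removed by the low-count filter. In edgeR 4.0.16 (R 4.3.3) with TMM scaling, quasi-likelihood tests were fitted to all 15 libraries of a tissue, and a call needed an adjusted p below 0.05 and a log2 fold change beyond 1. The difference between tissues was tested in all 30 libraries, with limma 3.58.1 as an alternative. DESeq2 1.42.0, other filters, single libraries left out and a replicate block were alternatives. Deviations of same-numbered libraries from their group means correlated at 0.19 or less, and these libraries were not paired in the main fits. All members are named. The named pathway genes came from a list of 11 or from the 3 called with the largest change in a comparison. Values of the 11 are given in some comparisons only, and none are given for Irf5 and Ly96. The members and the lists were chosen with earlier results of these data known. The code was tested on simulated data.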

Additional observations from a re-analysis of the deposited data

Results flagged for a closer look

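The log2 fold change of Vehicle against WT differed between ATMs and BM for 7 members, by a test of the difference itself (edgeR). ATM minus BM it was 2.97 for Tlr13 (0.32 in BM and 3.29 in ATMs, adjusted p = 1.25e-16), 1.31 for Tlr4 (-0.42 in BM and 0.89 in ATMs, adjusted p = 5.38e-07) and 1.16 for Tlr2 (0.49 in BM and 1.65 in ATMs, adjusted p = 3.85e-12). It was 0.97 for Tlr8 (-0.78 in BM and 0.20 in ATMs, adjusted p = 0.00286) and -0.84 for Tlr7 (1.61 in BM and 0.78 in ATMs, adjusted p = 0.000605). It was -1.09 for Tlr1 (0.64 in BM and -0.45 in ATMs, adjusted p = 0.0178) and -2.03 for Tlr5 (-2.51 in BM and -4.57 in ATMs, adjusted p = 0.0244). The Tlr5 value rests on 2 ATM Vehicle libraries without counts and 1 with 20 counts, and it no longer passed without any single one of 4 libraries, BM WT replicate 1, BM Vehicle replicate 1 and ATM Vehicle replicates 2 and 3 (adjusted p from 0.0521 to 0.0654).

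The log2 fold change of Combo against Vehicle differed for 5 members. ATM minus BM it was 1.79 for Tlr7 (-1.62 in BM and 0.13 in ATMs, adjusted p = 1.09e-08) and 1.69 for Tlr1 (-0.42 in BM and 1.24 in ATMs, adjusted p = 0.000502). It was -1.05 for Tlr4 (0.65 in BM and -0.45 in ATMs, adjusted p = 1.32e-05) and -0.89 for Tlr13 (-0.071 in BM and -0.997 in ATMs, adjusted p = 1.1e-06). The smallest difference was -0.20 for Tlr2 (-0.24 in BM and -0.48 in ATMs, adjusted p = 0.0442). The Tlr2 value no longer passed without any single one of 7 libraries, all BM Vehicle replicates, BM Combo replicates 2 and 3 and ATM Combo replicates 1 and 3 (adjusted p from 0.0557 to 0.115), or with the replicate block (0.0882). The same 7 and 5 genes passed with limma.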

How the results depend on the processing

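Of 92 recomputed counts of called members under settings other than the fold limit, 89 stayed within 1.5 times the reported count. ATM Combo against Vehicle had 4 called with DESeq2 and 1 with only the 6 libraries compared, in place of 2. Without a fold limit the counts of 10 members, each with the share of all genes, were in BM 10 (76.6%) for Vehicle against WT, 8 (72.8%) for GLP1, 9 (73.0%) for IL17 and 8 (73.8%) for Combo against Vehicle, 6 (73.3%) for Combo against WT, 8 (71.4%) for Combo against GLP1 and 5 (52.5%) for Combo against IL17. In ATMs they were 7 (56.9%) for Vehicle against WT, 7 (53.8%) for GLP1, 8 (58.1%) for IL17 and 6 (48.7%) for Combo against Vehicle, 7 (41.1%) for Combo against WT, 4 (39.8%) for Combo against GLP1 and 3 (28.6%) for Combo against IL17. With coding length in place of exon length, 6 of 10 members kept their place in the BM order of mean levels and 8 in the ATM order. Leaving out 1 library gave 1 to 2 calls for ATM Combo against GLP1, 0 to 1 for Combo against IL17 in each tissue, 2 to 3 for ATM Combo against Vehicle, 2 to 4 for ATM Combo against WT, 4 to 6 for ATM GLP1 against Vehicle, 5 to 6 for ATM IL17 against Vehicle, 4 to 5 for ATM Vehicle against WT, 5 to 6 for BM GLP1 against Vehicle, and 6 to 8 and 4 to 6 for the tissue differences of Vehicle against WT and Combo against Vehicle. The cause was not tested.

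The replicate block gave the reported count in all comparisons except ATM Combo against WT (2 in place of 3) and the tissue difference of Combo against Vehicle (4 in place of 5). Same-numbered libraries correlated at -0.055 to 0.19 in BM, -0.025 to 0.035 in ATMs and -0.021 to 0.033 across tissues. Such values cannot settle whether same-numbered BM and ATM libraries came from the same mouse, because 2 tissues of a mouse need not deviate together.

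Directions turned for 7 gene values under settings other than leaving out a library. They were BM Combo against IL17 for Tlr7 (-0.012 with a minimum of 10 counts and -0.033 with 6 libraries) and Tlr8 (-0.020 with 6 libraries), and the tissue difference of Combo against Vehicle for Tlr5 (1.60 with limma, 0.32 with the block) and Tlr8 (0.038 and 0.016). Leaving out 1 library turned the direction within these ranges. In BM they were -0.016 to 0.040 for Tlr8 and -0.073 to 0.0077 for Tlr4 with GLP1, -0.014 to 0.013 for Tlr13 with IL17, and for Combo against WT -0.065 to 0.14 for Tlr7, -0.15 to 0.0051 for Tlr8 and -0.18 to 0.010 for Tlr5. For BM Combo against GLP1 they were -0.061 to 0.058 for Tlr9 and -0.67 to 0.24 for Tlr3, and against IL17 -0.074 to 0.070 for Tlr7, -0.047 to 0.060 for Tlr8 and -0.056 to 0.051 for Tlr5. In ATMs they were -0.40 to 0.63 for Tlr9 and -0.17 to 0.37 for Tlr8 in Vehicle against WT, -0.63 to 0.29 for Tlr1 and -0.90 to 0.044 for Tlr9 with GLP1, and -0.12 to 0.32 for Tlr3 in Combo against IL17. For the tissue difference of Combo against Vehicle they were -0.25 to 0.29 for Tlr8, -0.38 to 0.23 for Tlr3 and -0.85 to 6.06 for Tlr5. The value 6.06 comes from leaving out ATM Vehicle replicate 1, after which Vehicle has no Tlr5 counts, and is no bound.

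In ATMs, Tlr9 held 7 to 47 counts a library, and Tlr5 0 to 20 in Vehicle. A minimum of 10 counts in every library removed both from the ATM table. The titles number the 3 libraries of a group, and the labels give no dates. Whether the libraries of a group came from separate mice was not tested.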

Other observations

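Other Toll-like receptor rows of the tables, which were not among the 10 members, were Tlr12, which senses profilin of protozoa, in both tissues and Tlr11, which pairs with it, in ATMs. Tlr12 in BM was at 139, 159.7 and 148 normalized counts in WT, 110.0, 109.5 and 104 in Vehicle, 56.2, 43.8 and 47.0 in GLP1, 106, 78.2 and 118 in IL17 and 59.7, 39.2 and 51.1 in Combo. The GLP1 and Combo libraries were below all others. In ATMs Tlr12 was at 38.1, 24.2 and 62.1 in WT and 9.35, 0 and 2.99 in Vehicle, and at 23.3, 40.6 and 19.0 in Combo. Tlr11 in ATMs was at 51.2, 45.2 and 24.0 in WT and at 0 counts in all Vehicle and GLP1 libraries. Against a floor of 3 counts in each library, WT was at least 9.33-fold above Vehicle and at least 12.5-fold above GLP1. It was at 5.61, 52.0 and 37.5 in IL17 and 2.59, 14.4 and 26.5 in Combo.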
